A study of Mus musculus with 8 samples.

Results

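The leukotriene and prostaglandin synthesis enzymes were followed here as a fixed set of 10 genes, Alox5, Alox5ap, Ltc4s, Lta4h, Alox15, Ptgs1, Ptgs2, Hpgds, Ptges and Ptgis, out of 45616 genes or accessions on the array. The genes were listed by name, with earlier results of these data known. They were read by 13 of 56605 probes, and all 10 passed the filter on dim signals, Hpgds only through the groups given allergen. Lung RNA of 8 female BALB/c mice was measured, 2 mice in each of 4 groups, with 1 single-color array per mouse. NT mice received standard feed and no allergen. Ctrl-F mice received standard feed and ovalbumin (OVA), Cap-F mice received feed with carbonate apatite particles that carried no oligonucleotide and OVA, and ODNcap-F mice received feed with particles that carried the CpG oligodeoxynucleotide MsST and OVA. All mice were bought at 4 weeks of age, housed for 2 weeks and then fed for 70 days. OVA with alum was injected on Days 42, 49 and 56 and OVA was inhaled daily from Day 63 to Day 69, so that the lungs of the OVA groups were taken 24 h after the last inhalation. NT differed from the other groups in both sensitization and inhalation, and no group received the particles without OVA. Whole lung was used, so that more cells of a type and more RNA per cell cannot be told apart in any value below.

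Arachidonic acid, freed from membranes by phospholipases, is the shared substrate of these enzymes. In the 5-lipoxygenase branch, 5-lipoxygenase (Alox5) acts with its helper protein FLAP (Alox5ap) to make leukotriene A4, which leukotriene A4 hydrolase (Lta4h) turns into the neutrophil attractant leukotriene B4 and leukotriene C4 synthase (Ltc4s) joins to glutathione to give the cysteinyl leukotrienes, which constrict airways. In the cyclooxygenase branch, cyclooxygenase 1 (Ptgs1) and the inducible cyclooxygenase 2 (Ptgs2) make prostaglandin H2, which hematopoietic prostaglandin D synthase (Hpgds), prostaglandin E synthase (Ptges) and prostacyclin synthase (Ptgis) turn into prostaglandins D2, E2 and I2. Alox15 encodes 12/15-lipoxygenase, which oxygenates arachidonic acid at other carbons. Eosinophils, mast cells and macrophages are known sources of leukotrienes and prostaglandin D2 in the lung, and endothelium and smooth muscle of prostacyclin.

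The proximal promoters of 7 of the 10 genes were held in the RefSeq promoter table (build GRCm38.p6), each running from 250 bases before to 50 bases after the start of transcription. Of these, 4 are printed 5′ to 3′ on the strand of the gene, because Alox5, Ptgs1 and Hpgds had more RNA in OVA-challenged lung and Ptges was read by probes that disagreed. Capitals mark every match to the motifs that were searched on both strands: TTCNNNNGAA (the STAT6 type), TTCNNNGAA (the general STAT type), TGANTCA (AP-1), TGACGTCA (the cAMP response element), CCAAT (the CCAAT box) and CANNTG (the E-box). The Alox5 promoter lies at chr6:116461129-116461428 on the minus strand, that of Ptgs1 at chr2:36230176-36230475 on the plus strand, that of Hpgds at chr6:65144681-65144980 on the minus strand and that of Ptges at chr2:30903248-30903547 on the minus strand.
Alox5: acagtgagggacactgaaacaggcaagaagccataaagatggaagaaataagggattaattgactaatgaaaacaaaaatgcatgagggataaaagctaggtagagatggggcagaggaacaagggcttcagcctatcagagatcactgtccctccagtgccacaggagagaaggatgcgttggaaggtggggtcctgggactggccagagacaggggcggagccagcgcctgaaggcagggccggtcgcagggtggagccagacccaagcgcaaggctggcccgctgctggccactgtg
Ptgs1: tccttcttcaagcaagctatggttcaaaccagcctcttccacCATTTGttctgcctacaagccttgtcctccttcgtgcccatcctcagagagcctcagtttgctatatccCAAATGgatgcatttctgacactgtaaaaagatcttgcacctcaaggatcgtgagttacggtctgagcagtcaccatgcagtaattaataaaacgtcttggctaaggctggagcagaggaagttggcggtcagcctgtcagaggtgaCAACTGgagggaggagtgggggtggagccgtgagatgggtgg
Hpgds: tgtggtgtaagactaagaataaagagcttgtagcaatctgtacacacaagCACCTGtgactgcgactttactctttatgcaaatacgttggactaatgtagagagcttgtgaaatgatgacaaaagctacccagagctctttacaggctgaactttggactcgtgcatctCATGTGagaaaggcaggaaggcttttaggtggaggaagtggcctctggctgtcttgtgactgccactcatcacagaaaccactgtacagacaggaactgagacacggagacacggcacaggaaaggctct
Ptges: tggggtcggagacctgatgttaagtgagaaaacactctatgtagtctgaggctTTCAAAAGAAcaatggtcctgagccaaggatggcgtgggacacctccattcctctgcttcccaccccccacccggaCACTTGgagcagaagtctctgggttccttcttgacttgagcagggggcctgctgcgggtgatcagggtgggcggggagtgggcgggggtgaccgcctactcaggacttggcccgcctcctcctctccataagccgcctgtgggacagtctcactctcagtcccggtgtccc
The Alox5 window held no match to any of these motifs, and the Ptgs1 and Hpgds windows held E-boxes alone. Only Ptges, of the 7 genes, held the STAT6 type, TTCAAAAGAA, with its first base at position -197 relative to the start, a motif found in 6.95% of all 32851 promoters of the same length. E-boxes were in 5 of the 7 windows (72.3% of all promoters) and CCAAT boxes in 1, that of Lta4h (37.4%). The general STAT type (8.30% of all promoters), AP-1 (7.81%) and the cAMP response element (1.79%) matched in 0 of the 7. A match describes letters in the window and was not tested as a binding site.

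The arrays lay on 1 slide, NT and Ctrl-F in row 1 and Cap-F and ODNcap-F in row 2, so that row and group cannot be told apart in any comparison across the rows. On each array, 61.3% to 65.0% of probes stood well above background. The genes that mark alveolar type 2 cells, the defining surfactant-producing cells of the lung, were well above background on all 8 arrays. Levels are log2 of the quantile-normalized signal of a gene's brightest probe and differences are log2 fold changes from 1 limma fit of all 8 arrays, with the standard error (SE) and a Benjamini-Hochberg adjusted p over all kept probes. Genes with an adjusted p under 0.05 that also moved by more than 2-fold were called. Levels of different probes cannot be set against each other. All p-values rest on the spread between mice of a group, 2 in each.

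Compared with NT, OVA-challenged lung had far more Alox15 RNA, more Ptgs1, Hpgds and Alox5 RNA, and less Ptgis RNA, in all 3 feeds. Alox5ap and Ltc4s rose by less than 2-fold in all 3 groups, and Lta4h did so in Ctrl-F and Cap-F. In Ctrl-F against NT, 3 of the 10 genes were called higher and 1 lower, against 10.5% and 12.2% of all 28992 genes or accessions tested. In Cap-F against NT, 4 were called higher and 1 lower (9.74% and 9.87% of all), and in ODNcap-F against NT, 4 higher and 1 lower (9.86% and 10.8% of all). Hpgds is among those called higher in each group, with an NT signal that was not well above background. At an adjusted p under 0.05 with no limit on the fold, 8, 9 and 8 of the 10 genes passed for Ctrl-F, Cap-F and ODNcap-F, against 61.9%, 56.6% and 60.0% of all. The median difference of the 10 genes was 0.64, 0.59 and 0.54, where the median over all genes was -0.12, -0.11 and -0.12. These 3 comparisons share the same 2 NT arrays and are not independent of each other.

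**Figure D1:**
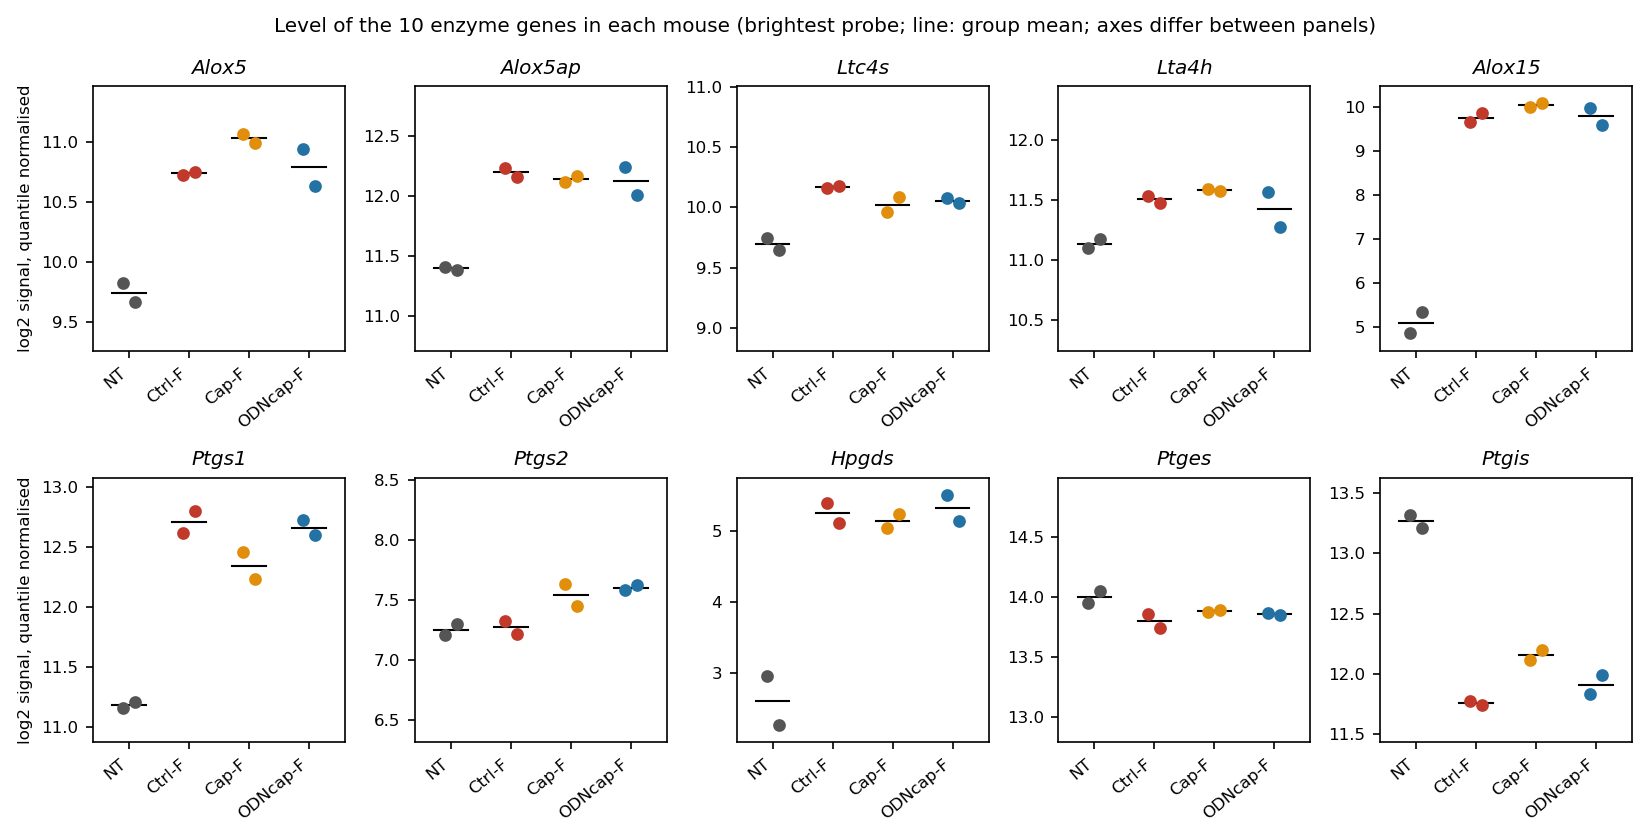
Level of each of the 10 enzyme genes in each of the 8 mice. Each panel is a gene and each point is 1 mouse, placed by feeding group on the horizontal axis and by log2 quantile-normalized signal on the vertical axis, whose range differs between panels; the black line is the group mean. The 2 NT mice lie below all 6 OVA-challenged mice for Alox5, Alox5ap, Ltc4s, Lta4h, Alox15, Ptgs1 and Hpgds. They lie above them for Ptgis and, by a small margin on its brightest probe, for Ptges.

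Alox5 was read at 9.82 and 9.66 in the NT mice, 10.73 and 10.75 with Ctrl-F, 11.06 and 10.99 with Cap-F and 10.94 and 10.63 with ODNcap-F. Every OVA-challenged mouse lay above both NT mice, and the 2 ODNcap-F mice spanned those of Ctrl-F. The difference from NT was 0.99 in Ctrl-F (SE 0.12, adjusted p = 0.000798), a 1.99-fold rise that fell just short of the 2-fold limit, 1.28 in Cap-F (2.44-fold, adjusted p = 0.000368) and 1.04 in ODNcap-F (2.06-fold, adjusted p = 0.000718). The calls of Alox5 therefore sit on the limit: the ODNcap-F difference was 0.96 when NT mouse 2 was left out and 0.89 when ODNcap-F mouse 1 was, and the Ctrl-F difference was 1.07 when NT mouse 1 was left out and 1.0028 when Ctrl-F mouse 1 was.

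Alox5ap, the membrane protein that hands arachidonic acid to 5-lipoxygenase, was read at 11.41 and 11.38 in the NT mice and at 12.23 and 12.16 with Ctrl-F. It was at 12.11 and 12.16 in Cap-F and at 12.24 and 12.01 in ODNcap-F. The groups given OVA overlapped each other and stood clear of NT. The differences from NT were 0.80 for Ctrl-F, 0.74 for Cap-F and 0.73 for ODNcap-F (SE 0.094), which are rises of 1.74-, 1.67- and 1.66-fold with adjusted p of 0.000766, 0.00118 and 0.00116.

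The enzymes that use leukotriene A4 moved less. Ltc4s was read at 9.75 and 9.64 in the NT mice, 10.16 and 10.18 with Ctrl-F, 9.96 and 10.09 with Cap-F and 10.08 and 10.03 with ODNcap-F. It rose by 0.47 for Ctrl-F, 0.33 for Cap-F and 0.36 for ODNcap-F (SE 0.077, adjusted p = 0.00279, 0.0133 and 0.00875), at most 1.39-fold. Lta4h was read at 11.10 and 11.17 in the NT mice, 11.54 and 11.48 with Ctrl-F, 11.60 and 11.57 with Cap-F and 11.57 and 11.28 with ODNcap-F. It rose by 0.37 in Ctrl-F and 0.45 in Cap-F (SE 0.11, adjusted p = 0.0255 and 0.0142). With ODNcap-F the smaller difference of 0.28, at the same SE, did not pass (adjusted p = 0.0620). The SD between the ODNcap-F mice was 0.207, but the fit uses 1 spread for all groups.

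Alox15 changed most of the 10 genes. Its levels were 4.86 and 5.34 in the NT mice against 9.66 and 9.86 with Ctrl-F, 10.01 and 10.09 in Cap-F and 9.98 and 9.59 in ODNcap-F. The probe was well above background on all 8 arrays, and the lowest OVA-challenged mouse stood above the higher NT mouse by far more than mice of any group differed. The rise was 25.3-fold for Ctrl-F, 30.9-fold for Cap-F and 25.8-fold for ODNcap-F, or 4.66, 4.95 and 4.69 on the log2 scale (SE 0.20), with adjusted p of 2.60e-05, 2.48e-05 and 2.89e-05.

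Of the cyclooxygenases, Ptgs1, usually described as constitutive, was the one that was called. It was read at 11.16 and 11.21 in the NT mice, 12.61 and 12.79 with Ctrl-F, 12.45 and 12.23 with Cap-F and 12.72 and 12.59 with ODNcap-F. It rose by 1.52 for Ctrl-F, 1.16 for Cap-F and 1.48 for ODNcap-F (SE 0.11), which are 2.87-, 2.23- and 2.78-fold, with adjusted p of 0.000139, 0.000418 and 0.000176. Ptgs2, the form that inflammatory stimuli usually induce, was read at 7.21 and 7.30 in the NT mice and 7.32 and 7.22 with Ctrl-F. It was at 7.63 and 7.45 in Cap-F and 7.58 and 7.63 in ODNcap-F. NT and Ctrl-F overlapped, with a difference of 0.02 and a 95% interval from -0.20 to 0.24 (adjusted p = 0.865), so that a 2-fold change of Ptgs2 lies outside the interval. Ptgs2 was higher than NT in Cap-F by 0.29 (adjusted p = 0.0350) and in ODNcap-F by 0.35 (adjusted p = 0.0172), and these groups are those of slide row 2.

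Hpgds, the prostaglandin D synthase of mast cells, T helper 2 cells and other blood-derived cells, was not well above background in either NT mouse, with readings of 2.96 and 2.28. It was well above background in all 6 OVA-challenged mice, at 5.39 and 5.12 for Ctrl-F, 5.04 and 5.24 for Cap-F and 5.51 and 5.14 for ODNcap-F. All 3 feeds overlapped. Since NT gave only a bound, each rise is given against the lowest signal that was well above background on the NT arrays. The rise was at least 3.10-fold for Ctrl-F, at least 2.86-fold for Cap-F and at least 3.24-fold for ODNcap-F. The adjusted p of the limma fit were 0.000359, 0.000502 and 0.000371. They rest on NT readings that were not well above background and do not test these bounds. Hpgds passed the filter on dim signals only through the OVA-challenged groups. With normexp background correction the differences shrank to 0.47, 0.43 and 0.51, and Hpgds was no longer called.

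**Figure D2:**
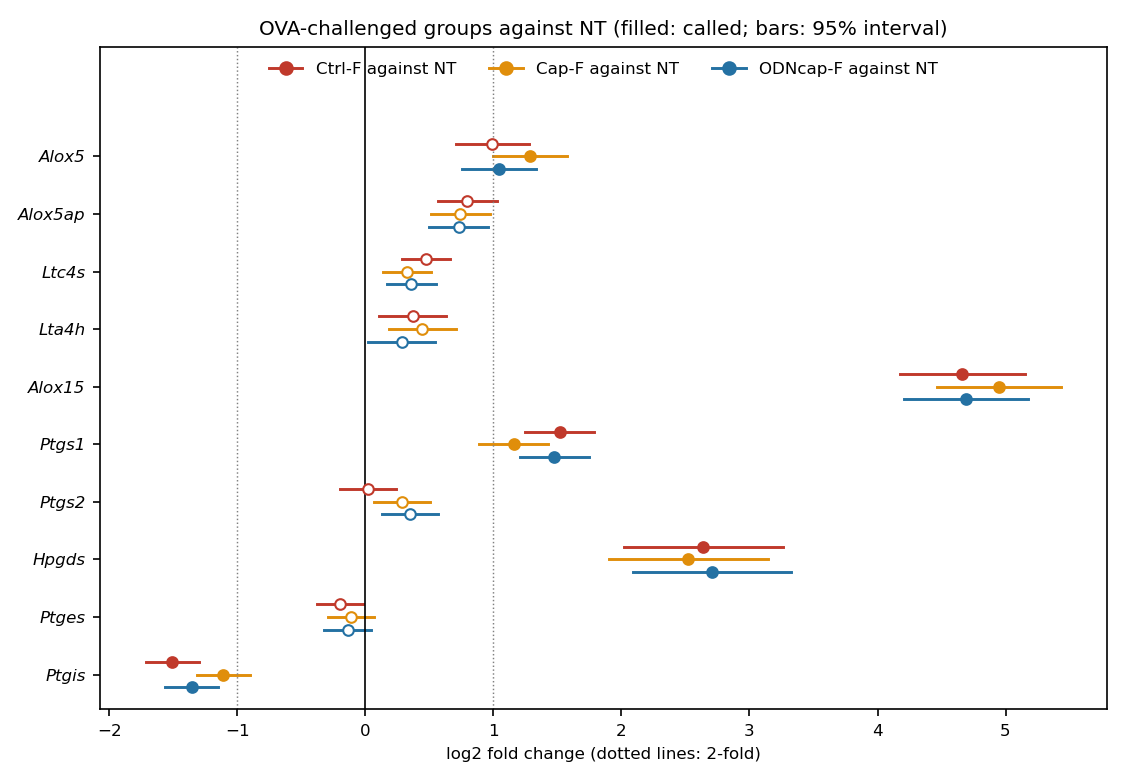
Difference of each OVA-challenged group from NT for the 10 genes. Points are log2 fold changes of the brightest probe on the horizontal axis, bars are 95% intervals from the limma fit, filled points were called and open points were not, and dotted lines mark a 2-fold change. Alox15 lies between 4.66 and 4.95, Ptgis lies below -1 in all 3 groups, and the fitted values of Hpgds overstate what can be measured, since NT was below background.

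Ptges was read by 3 probes of the same accession that gave different answers. The brightest was at 13.95 and 14.05 in NT and between 13.74 and 13.89 in the OVA-challenged mice, and its differences from NT were -0.20 for Ctrl-F, -0.11 for Cap-F and -0.14 for ODNcap-F (SE 0.074), with adjusted p of 0.0578, 0.231 and 0.151. The next probe was at 7.60 and 7.52 in the NT mice, 9.58 and 9.67 with Ctrl-F, 9.35 and 9.34 with Cap-F and 9.57 and 9.66 with ODNcap-F, called higher by 4.18-, 3.44- and 4.15-fold (adjusted p = 1.54e-05, 2.76e-05 and 1.66e-05). The remaining probe was at 7.88 and 7.77 in NT and between 8.71 and 8.89 in the OVA-challenged mice, a rise of 2.07-fold for Ctrl-F, 1.95-fold for Cap-F and 2.06-fold for ODNcap-F (adjusted p = 0.000180, 0.000289 and 0.000210), which is called where it exceeds 2-fold. Both dimmer probes of Ptges thus had NT below every OVA-challenged mouse where the brightest had NT above them. By the rule of the brightest probe Ptges counts as not called, and by the mean of its probes the differences were 0.97, 0.88 and 0.99. Which probe reads the Ptges transcript was not tested.

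Ptgis, which makes prostacyclin, an inhibitor of platelets and a vasodilator made chiefly by endothelium, was the member that fell. Its brighter probe was read at 13.32 and 13.21 in the NT mice, 11.78 and 11.74 with Ctrl-F, 12.12 and 12.19 with Cap-F and 11.83 and 11.99 with ODNcap-F. The differences were -1.51, -1.11 and -1.36 (SE 0.084), which are falls of 2.84-, 2.16- and 2.56-fold with adjusted p of 6.12e-05, 0.000193 and 9.78e-05. The dimmer probe gave -1.51, -1.24 and -1.44 (adjusted p = 0.000249, 0.000605 and 0.000333). On both probes every OVA-challenged mouse lay below both NT mice.

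**Figure D3:**
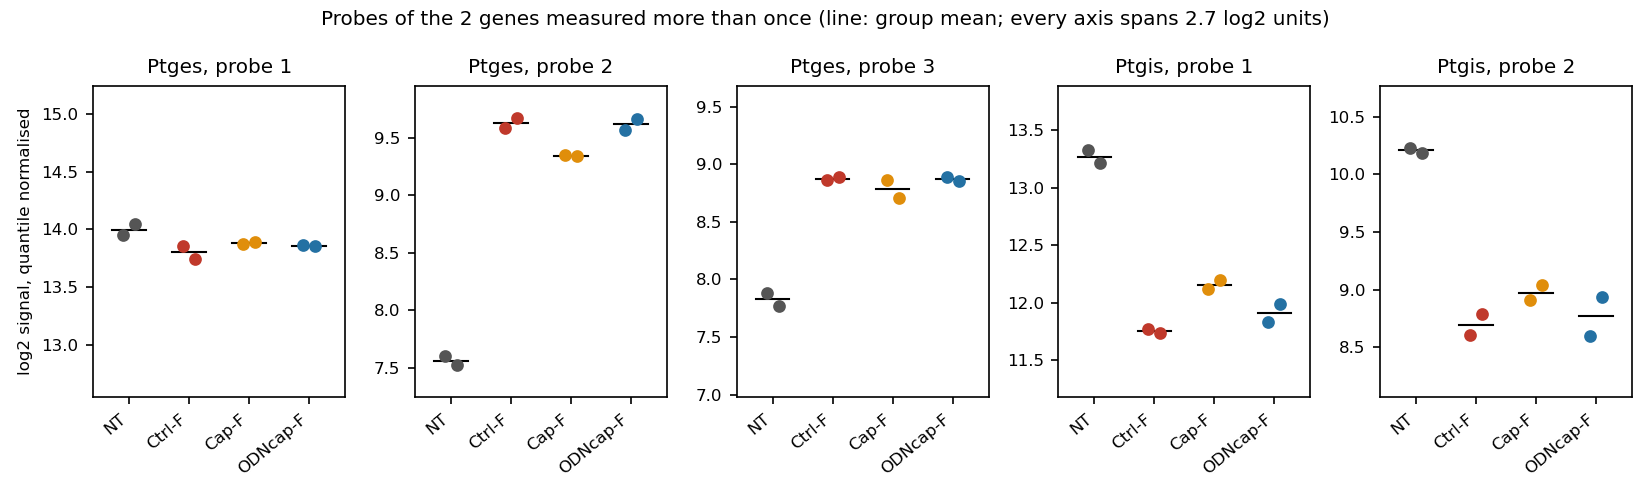
The 3 probes of Ptges and the 2 of Ptgis in each mouse. Points are mice by feeding group, the vertical axis is log2 quantile-normalized signal and spans 2.7 units in every panel, and black lines are group means. Probe 1 of Ptges has NT just above the other groups, probes 2 and 3 have NT below them, and both probes of Ptgis have NT above them.

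Markers of several cell types moved with these genes between NT and the OVA groups. Summed linear signal of 7 eosinophil markers was 1751 to 1891 in NT and 5384 to 6992 in the OVA-challenged mice, with 6 of 7 called higher in Ctrl-F, Epx, the eosinophil peroxidase, by at least 27.2-fold. The sum of 6 markers of alternatively activated macrophages was 21684 to 22078 in NT and 199888 to 219787 in the others, with 5 of 6 called higher, and that of 7 monocyte and macrophage markers was 37116 to 41295 against 48105 to 57803, with 5 higher and 1 lower. Mast cell markers summed to 10983 to 12321 in NT and 13057 to 14119 in the others, with 2 of 7 called higher, among them Cpa3, mast cell carboxypeptidase, by 2.73-fold. The other 5 were not called, and some of them lay lower in Ctrl-F. Kit was at 12.04 and 12.56 in NT and at 11.21 and 11.43 in Ctrl-F. Tpsb2 was at 6.92 and 6.99 in NT and at 6.84 and 6.90 in Ctrl-F. Of the tuft cell markers, Trpm5, Pou2f3, Il25 and Gnat3 were below background on all 8 arrays, while Dclk1 was called higher by 5.41-fold and Avil was 1.92-fold lower and not called. Of 7 markers of T helper 2 cells and group 2 innate lymphoid cells, 5 were called higher and 1 lower in each OVA group. The cytokine gene Il5 was higher by at least 7.35-fold in Ctrl-F. The summed signal of the 7 was 12572 to 13307 in NT and 8428 to 10258 in the others. Any such sum follows its brightest probes, here Rora and Gata3. Rora, the 1 called lower, was at 13.27 and 13.20 in NT and 11.71 and 11.89 in Ctrl-F. Of 6 club and goblet cell markers, 3 were called higher and 2 lower in each OVA group, with sums of 423058 to 453028 in NT and 331014 to 412255 in the others. Neutrophil markers summed to 118223 to 128901 in NT and 74258 to 99486 in the others, with 1 of 7 called higher and 1 lower in Ctrl-F. Of 8 alveolar macrophage markers, 3 were called higher and 3 lower in Ctrl-F, with sums of 30227 to 30525 in NT and 147623 to 154530 in the others. That sum mostly follows Chil3, its brightest probe, at 13.93 and 14.05 in NT and 16.85 and 16.81 in Ctrl-F. Among those lower, Marco went from 10.20 and 10.04 in NT to 6.73 and 5.55 in Ctrl-F. Fabp1 went from 10.55 and 10.09 to 5.81 and 6.04. Basophil markers summed to 89 and 301 in NT and 150 to 211 in the others, with 2 of 4 called higher in Ctrl-F. The part of any of these cells in the rises of Alox15, Alox5, Ptgs1 and Hpgds was not tested. Endothelial markers moved the same way as Ptgis: their sum was 165298 to 171926 in NT and 59447 to 75974 in the OVA-challenged mice, 5 of 7 were called lower in each OVA group, and Tek, an endothelial receptor kinase, fell by 1.98 on the log2 scale in Ctrl-F. Alveolar type 1 markers also fell, with 3 of 5 called lower in each OVA group and sums of 245390 to 257625 in NT and 112727 to 135913 in the others. Smooth muscle markers, of cells that make prostacyclin, had sums of 33206 to 36214 in NT and 29548 to 45568 in the others. In Ctrl-F against NT, 0 of these 6 were called by limma or by the local-pooled-error test, and 1 had an unadjusted p under 0.05. The part of endothelial or alveolar type 1 RNA in the fall of Ptgis was not tested.

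Among the OVA-challenged groups, which address whether the particles or the oligonucleotide in the feed changed these enzymes, 0 of the 10 genes were called by limma in any of the 3 comparisons, and the local-pooled-error test that the study used also called 0. Over all genes, 0% were called by limma in ODNcap-F against Ctrl-F, 0.00345% in ODNcap-F against Cap-F and 0.00345% in Cap-F against Ctrl-F. The local-pooled-error test called 133, 105 and 141 of all genes in these 3 comparisons. It was written here from its definition and run on the probes kept here, so these are not the study's own counts. At an unadjusted p under 0.05 the number of the 10 genes was 1, 2 and 4, where 6.78%, 13.4% and 16.6% of all genes had one (1966, 3880 and 4824 genes). The adjusted p of the 10 genes ran from 0.706 to 0.989, from 0.337 to 0.973 and from 0.165 to 0.850. All 95% intervals lay between -0.74 and 0.80 on the log2 scale, inside a 2-fold change either way, which with 2 mice in a group leaves room for smaller differences. The 2 groups did not overlap in 3 of the 10 genes for ODNcap-F against Ctrl-F (35.6% of all genes), in 6 for ODNcap-F against Cap-F (45.7%) and in 8 for Cap-F against Ctrl-F (51.7%).

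The oligonucleotide against the bare particles is the comparison within 1 slide row. There, Alox5 differed by -0.24 in ODNcap-F (95% interval from -0.53 to 0.05), Alox15 differed by -0.26 (from -0.74 to 0.23) and Ptgis by -0.25 (from -0.45 to -0.04, unadjusted p by limma 0.0265, adjusted p = 0.337). Ptgs1 differed by 0.32 (from 0.05 to 0.59, unadjusted p by limma 0.0281, adjusted p = 0.341). None of these passed, and by their brightest probes the remaining 6 genes differed by at most 0.18, the value of Hpgds. Probe 2 of Ptges differed by 0.27 (from 0.09 to 0.45, unadjusted p by limma 0.0103, adjusted p = 0.274). Probe 3 of Ptges differed by 0.08 (from -0.12 to 0.28). The dimmer probe of Ptgis differed by -0.205 (from -0.525 to 0.115, unadjusted p by limma 0.168), and on it the 2 groups overlapped.

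Against Ctrl-F, in slide row 1, Ptgs2 was the gene of ODNcap-F with an unadjusted p under 0.05, with a difference of 0.33 (from 0.11 to 0.55, adjusted p = 0.706). In the same comparison Alox5 differed by 0.05 (from -0.24 to 0.34), Alox15 by 0.03 (from -0.46 to 0.51) and Hpgds by 0.07 (from -0.55 to 0.69). In Cap-F against Ctrl-F, Ptgis differed by 0.40 (from 0.19 to 0.60, adjusted p = 0.165), Ptgs1 by -0.36 (from -0.63 to -0.09, adjusted p = 0.224), Alox5 by 0.29 (from 0.003 to 0.58, adjusted p = 0.304) and Ptgs2 by 0.27 (from 0.05 to 0.49, adjusted p = 0.243). Probe 2 of Ptges differed there by -0.28 (from -0.47 to -0.10, unadjusted p by limma 0.00868, adjusted p = 0.191). Probe 3 of Ptges differed by -0.09 (from -0.29 to 0.11). The dimmer probe of Ptgis differed by 0.28 (from -0.04 to 0.60, unadjusted p by limma 0.0791). Cardiomyocyte markers had summed signals of 33254 and 16318 in NT, 5398 and 6787 for Ctrl-F, 5517 and 18235 for Cap-F and 13947 and 20767 for ODNcap-F. The Cap-F mice overlapped both other feeds, and 0 of the 7 markers were called by limma between feeds. The median difference of these markers was 2.08 in ODNcap-F against Ctrl-F (from 0.18 to 2.96). Against Cap-F it was 1.18 (from -0.11 to 1.72). By its own test, the paper reported cardiac muscle genes as higher in ODNcap-F, and it places cardiomyocytes along the large pulmonary veins. Its quantitative PCR, in more mice, gave less Tnnt2, Myh6 and Myl7 RNA than NT under Cap-F and Ctrl-F. Under ODNcap-F the PCR levels were near those of NT. Its troponin T staining showed occasional gaps around these veins under Cap-F and Ctrl-F, and no clear gaps under ODNcap-F. The part of cardiomyocyte RNA in the differences between feeds was not tested.

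**Figure D4:**
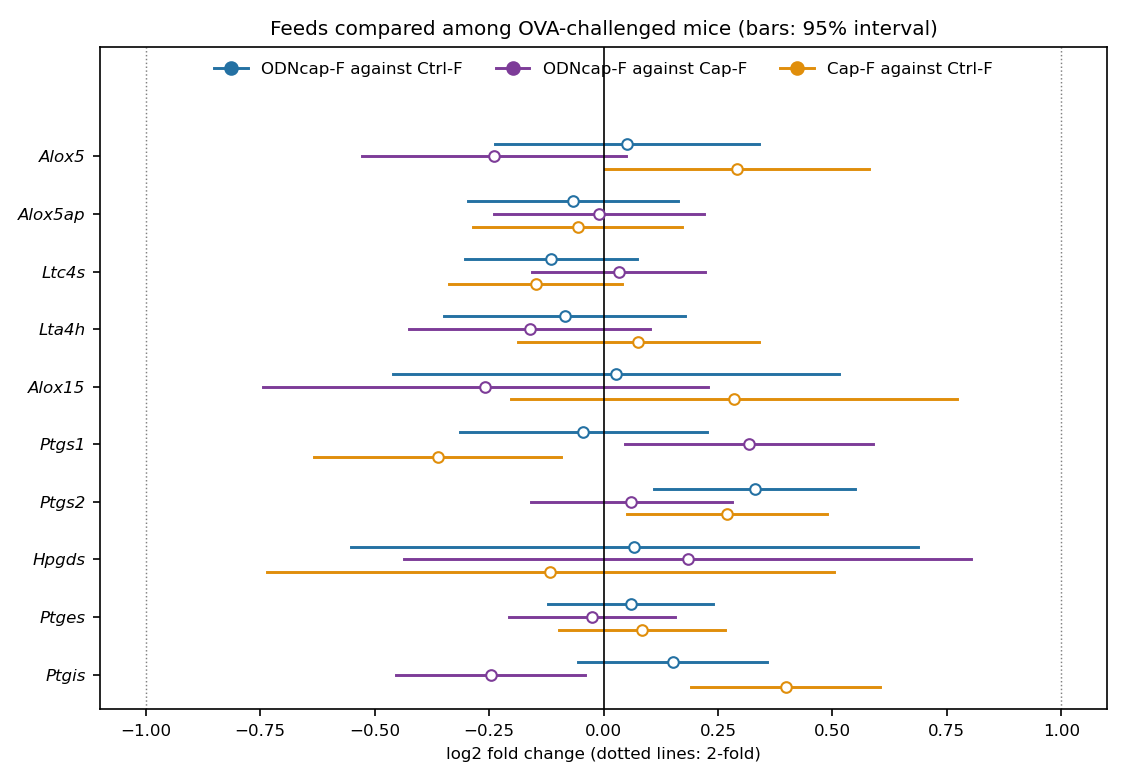
Differences between feeds among the OVA-challenged groups for the 10 genes. Points are log2 fold changes of the brightest probe, bars are 95% intervals from the limma fit, colors are the 3 comparisons, open points were not called and dotted lines mark a 2-fold change. Every interval stays inside the 2-fold lines.

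The rest of arachidonic acid metabolism was followed with 69 genes in 6 lists, of which 60 were tested. In Ctrl-F against NT, 15 were called higher and 8 lower, in Cap-F 14 and 11, and in ODNcap-F 18 and 9, with a median difference of 0.19, 0.17 and 0.20. Over all genes, 10.5% and 12.2% were called higher and lower in Ctrl-F, 9.74% and 9.87% in Cap-F, and 9.86% and 10.8% in ODNcap-F. Among the OVA-challenged groups 0 of the 60 were called by limma, with 5, 9 and 9 at an unadjusted p under 0.05 in ODNcap-F against Ctrl-F, ODNcap-F against Cap-F and Cap-F against Ctrl-F. Of all genes, 6.78%, 13.4% and 16.6% had an unadjusted p under 0.05 in these comparisons. The local-pooled-error test called 1 in each of the comparisons of ODNcap-F, Pla2g10, a secreted phospholipase A2, whose levels were 5.18 and 4.65 with Ctrl-F, 4.56 and 6.36 with Cap-F and 5.78 and 7.26 with ODNcap-F. Mice of the same feed differed widely in Pla2g10, and limma gave 1.60 against Ctrl-F (95% interval from -0.11 to 3.31) and 1.06 against Cap-F (from -0.65 to 2.77), neither past the threshold.

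Upstream, the phospholipases and other enzymes that free arachidonic acid had 6 of 19 tested genes called higher in Ctrl-F against NT. The share over all genes there, beside every list below, was 10.5% called higher and 12.2% called lower. Values are log2 fold changes where no fold is named. Pla2g5, a secreted phospholipase A2, was not well above background in NT, at 2.81 and 1.96, and was read at 7.93 and 7.97 in Ctrl-F, a rise of at least 20.0-fold by its brighter probe. Pla2g2d, a secreted form of lymphoid tissue, rose by 2.53 and Pla2g4c, a cytosolic form, by 2.32. Pla2g4a, the cytosolic phospholipase A2 that feeds both branches, was higher by 0.52 (1.43-fold, adjusted p = 0.0109) in Ctrl-F and was not called. Beside Alox15, the related Alox12e, an epidermal-type 12-lipoxygenase that was well above background on 7 of 8 arrays, rose by 5.09 while Alox12, the platelet-type 12-lipoxygenase, fell by 2.37, the 2 that were called of 3 tested in the list of other lipoxygenases. How far the probes of such related lipoxygenases share signal was not tested.

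Downstream of the leukotrienes, 2 of 10 tested genes were called higher and 2 lower in Ctrl-F against NT, where 10.5% and 12.2% of all genes were. Cyp4f18, a cytochrome P450 that degrades leukotriene B4 in neutrophils, rose by 3.17 and Cotl1, a protein that binds 5-lipoxygenase, by 2.08. Dpep1, the dipeptidase that turns leukotriene D4 into E4, fell by 1.60, and Ggt1, the enzyme before it, was at least 1.60-fold lower in Ctrl-F, since its probe was not well above background there. Of 8 other prostanoid synthases, Tbxas1, thromboxane synthase, rose by 2.49 and Gstm2, a glutathione transferase, fell by 1.56. Ptges2 and Ptges3, the other prostaglandin E synthases, differed by -0.05 and -0.15 (adjusted p = 0.598 and 0.295). Among 6 genes of prostanoid removal, Hpgd, which inactivates prostaglandins, fell by 2.21, Slco2a1, which carries them into cells, fell by 1.20, and Akr1c18 rose by 1.69. Of 14 tested receptors, 4 were called higher and 2 lower: the prostaglandin D2 receptor Ptgdr (at least 6.37-fold), the prostacyclin receptor Ptgir (2.16) and the leukotriene B4 receptor Ltb4r1 (2.08) rose, as did Ptger4 (1.66), a prostaglandin E2 receptor, while Fpr2, a receptor of formyl peptides and lipoxin A4, and Ptgfr, the prostaglandin F2α receptor, fell by 2.98 and 2.07. The same markers of eosinophils, macrophages and endothelium stood beside these values, and their part was not tested.

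**Figure D5:**
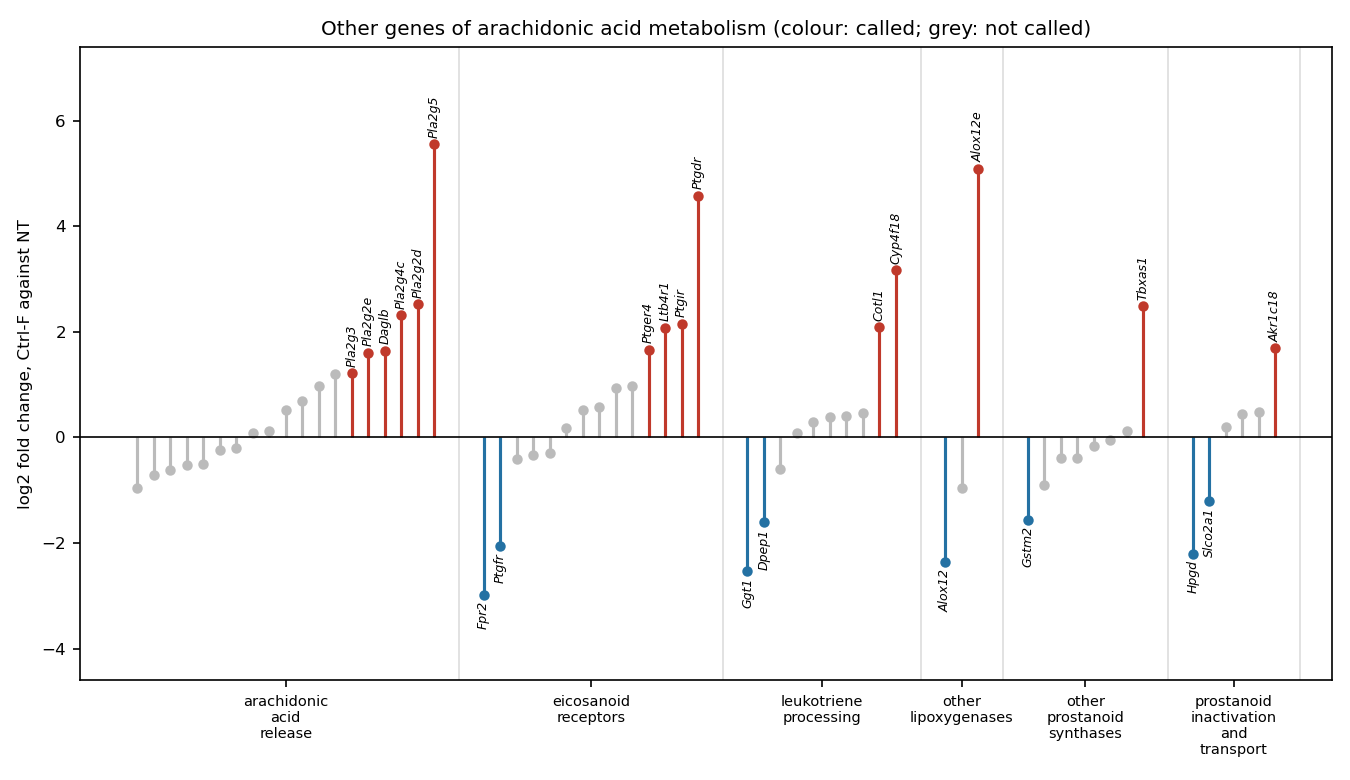
Other genes of arachidonic acid metabolism in Ctrl-F against NT. Each stem is 1 of the 60 tested genes, grouped by list and ordered by value, the vertical axis is the log2 fold change of the brightest probe, and red and blue stems were called higher and lower. Pla2g5 and Ptgdr were below background in NT and Ggt1 in Ctrl-F, so that their stems overstate what can be measured.

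The genes whose levels over the 8 arrays were most like each enzyme were sought among those with an SD of at least 0.3, as a description in which all points share the contrast of NT with OVA. For Alox15 they were Inpp5j, Cfp and Tns4, with Pearson r of 0.998 each. For Ptgis they were Phf1 (0.999), Dpyd (0.997) and Sh3bp4 (0.996). Alox5 was most like Dennd4b (0.995), Dok2 and Pira2 (0.994 each), and Neu1 (0.997) and Naip2 (0.996) were among those most like Alox5ap. Ptgs1 was most like Scamp5, Prune2 and Slc41a2 (0.997 each), and Hpgds most like B4galnt1, Kif15 and Ndc80 (0.996 each). Ltc4s was most like Camk2a (0.991), Pfn1 and Arpc4 (0.984 each), and Lta4h most like Tspyl3 (0.991), Tm6sf1 and Themis (0.988 each). The bright probe of Ptges was most like Zscan18 (0.978). Ptgs2, whose levels overlapped between NT and Ctrl-F, had its closest match in Tnfrsf22 at 0.886.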

How the data were processed

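Lung RNA of 8 mice was measured on 8 arrays. The authors deposited the scanner output of Agilent Feature Extraction 11.0: the background-subtracted intensity of every spot, raw median intensities and software flags. The authors also deposited a table of 32312 probes on the log2 scale, quantile normalized over the arrays after a filter that is not given in the sources used here. Here, 792 flagged spot values were set to missing, log2 intensities were averaged per probe and quantile normalized, and 37116 of 56605 probes were kept, those that some group had well above background in both of its mice. Names came from a RefSeq table (58.3% of probes matched). A limma fit (version 3.58.1, in R 4.3.3) took all 8 arrays together, with 4 residual degrees of freedom and 6 comparisons, without a covariate. Where a whole group was not well above background, the fold is a bound. The local-pooled-error test that the study used, written here from its definition, was an alternative. Exact permutation of 2 against 2 mice cannot go below a two-sided p of 0.333. Named genes were the 10 members, up to 3 called genes each way per pathway list in Ctrl-F against NT, genes called between feeds, and the 3 genes most like each member, of which 1 is not reported here. Pla2g4a, Pla2g10, Ptges2, Ptges3, Ptger4 and single markers were named after their values were seen. The members and lists were chosen with earlier results of these data known. The number of arrays limits the precision.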

Additional observations from a re-analysis of the deposited data

How the results depend on the processing

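The number of the 10 enzyme genes called against NT was 3 to 5 for Ctrl-F, 4 to 5 for Cap-F and 3 to 5 for ODNcap-F over the alternatives that kept the 2-fold limit, and 0 among the OVA-challenged groups in each of them. With normexp background correction it was 3 in ODNcap-F against NT, where Hpgds and Alox5 were not called. Without the fold limit it was 8, 9 and 8 for Ctrl-F, Cap-F and ODNcap-F, and the other genes of the pathway numbered 45, 45 and 44. Of all genes, 61.9%, 56.6% and 60.0% passed without that limit. Replicate numbers did not pair the mice (correlations of deviations from -0.012 to 0.161), and with a replicate block the 10 genes gave 4, 5 and 5 calls against NT. Scaling to the 75th percentile left the median of all genes at -0.12, -0.12 and -0.13 against NT.

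Signs turned in values that had not been called. By the mean of its probes, Ptges differed by 0.97, 0.88 and 0.99 from NT for Ctrl-F, Cap-F and ODNcap-F, by 0.11 in ODNcap-F against Cap-F and by -0.10 in Cap-F against Ctrl-F, which follows from the probes that disagree. With 75th percentile scaling, the bright probe of Ptges differed by 0.060, 0.026 and 0.087 from NT, by 0.061 in ODNcap-F against Cap-F and by -0.034 in Cap-F against Ctrl-F, Ptgs2 by -0.040 in Ctrl-F against NT and Alox5ap by 0.039 in ODNcap-F against Cap-F. With normexp, ODNcap-F against Ctrl-F gave -0.026 for Alox5 and 0.0011 for Ptgs1. The cause was not tested for these scalings.

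With 1 mouse left out, Ptgs2 ran from -0.031 to 0.070 in Ctrl-F against NT. In ODNcap-F against Ctrl-F, Alox5 ran from -0.10 to 0.20, Alox5ap from -0.18 to 0.049, Lta4h from -0.23 to 0.061, Alox15 from -0.17 to 0.22, Ptgs1 from -0.14 to 0.047 and Hpgds from -0.12 to 0.25. In ODNcap-F against Cap-F, Alox5ap ran from -0.13 to 0.11, Ltc4s from -0.031 to 0.097, Ptgs2 from -0.031 to 0.15 and Hpgds from -0.0034 to 0.37, and in Cap-F against Ctrl-F Hpgds ran from -0.25 to 0.020.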
